A study of Mus musculus with 4 samples.

Results

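The genes that make, take up, move and export cholesterol were described in mouse peritoneal macrophages. The list held 37 genes, chosen by symbol for their place in this pathway. Of these, 34 had a probe set that the platform annotation assigned to 1 gene, out of 18193 such genes on the array. Where a gene had several probe sets, the one with the highest mean over all arrays stood for it. Acat2, Soat1 and Nr1h2 were not analysed here. All 34 measured genes reached a level floor of 6.39, the median of all deposited values, on at least 1 array, as did 12767 genes in all.

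There were 4 groups with 1 array each: Dap12-KO macrophages with interleukin-4 (IL-4), untreated Dap12-KO macrophages, WT macrophages with IL-4 and untreated WT macrophages. All cells came from the peritoneal cavity of mice given thioglycolate, an irritant that draws macrophages there, and spent 18 hours on plastic slides. DAP12 is the signalling adaptor encoded by Tyrobp, and IL-4 is the cytokine of alternative activation. The labels used here give no strain, age, sex, IL-4 dose, targeting strategy or number of mice per array. The study's question was what DAP12 does to macrophage gene expression, both in resting cells and in cells given IL-4. With 1 array per group, a difference between 2 arrays has no error and no test, and the number of arrays limits every value. Differences are on the log2 scale, IL-4 minus untreated or Dap12-KO minus WT, and a gene was counted where it differed at least 2-fold.

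The labels and arrays were checked before the pathway was read. Tyrobp itself read 13.27 with IL-4 and 14.03 untreated on the arrays labelled Dap12-KO, against 14.13 and 14.39 on the WT arrays. The targeted gene thus differed by −0.86 with IL-4 and −0.36 untreated, and stayed bright on every array. Whether its probe set lies in the deleted part is not given in the sources used here, so every genotype direction below rests on the labels. The array labelled Dap12-KO IL-4 also had a narrower spread, with an interquartile range of 2.54 log2 units against 3.19 to 3.25 on the other 3. The median of all genes above the floor differed by −0.40 for IL-4 in Dap12-KO and by −0.03 for IL-4 in WT. It was 0.03 for Dap12-KO against WT untreated and −0.39 with IL-4. Cyclic loess, an intensity-dependent rescaling of all 4 columns to each other, was run as an alternative, and it moved most values that use that array. After it, the all-gene medians of these 4 comparisons lay between 0.01 and 0.11. All 7 macrophage markers were above the floor. The IL-4 response genes Arg1, Chil3, Retnla and Mrc1 were at least 2-fold higher with IL-4 in 4 of 4 cases in Dap12-KO and in 3 of 4 in WT, where Retnla differed by 0.66.

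Cells make cholesterol from acetyl-CoA through mevalonate, squalene and lanosterol. The transcription factor SREBP2 (Srebf2) switches on nearly every enzyme of this route when membranes hold little sterol. SCAP carries it to the Golgi for cleavage, and the INSIG proteins hold both back when sterols are plentiful. The liver X receptors (LXR) act in the opposite situation: bound by oxysterols, they switch on the export pumps ABCA1 and ABCG1, the acceptor apolipoprotein E and MYLIP, a ubiquitin ligase that marks lipoprotein receptors for degradation. Macrophages, which take in whole cells and lipoproteins, depend on this pair of programmes to keep free cholesterol in bounds.

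The promoters of 6 genes are shown because their windows hold, or lack, the short sequences of these 2 programmes and because these genes feature in the results below. No expression result below uses the motifs. The windows run from 250 bases before to 50 bases after the gene start, read 5′ to 3′ on the gene's strand, from RefSeq on GRCm38.p6. They are Hmgcs1 (chr13:119690101-119690400, plus strand), Sc5d (chr9:42264251-42264550, minus), Srebf1 (chr11:60210422-60210721, minus, 1 of its 3 windows), Abca1 (chr4:53159846-53160145, minus), Mylip (chr13:45389492-45389791, plus) and Ch25h (chr19:34475099-34475398, minus). Capitals mark 3 motifs searched on both strands: the SREBP site TCACNCCAC, the NF-Y box CCAAT, and an LXR site of the DR4 type, which is GGTNA, any 5 bases, then GGTNA again in the same orientation.
Hmgcs1: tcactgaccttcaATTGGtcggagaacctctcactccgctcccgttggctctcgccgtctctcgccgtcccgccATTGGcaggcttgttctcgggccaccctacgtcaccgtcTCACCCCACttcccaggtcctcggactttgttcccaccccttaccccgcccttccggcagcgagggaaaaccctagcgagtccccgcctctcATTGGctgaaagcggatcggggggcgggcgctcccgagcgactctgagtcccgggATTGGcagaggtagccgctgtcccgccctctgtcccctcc
Sc5d: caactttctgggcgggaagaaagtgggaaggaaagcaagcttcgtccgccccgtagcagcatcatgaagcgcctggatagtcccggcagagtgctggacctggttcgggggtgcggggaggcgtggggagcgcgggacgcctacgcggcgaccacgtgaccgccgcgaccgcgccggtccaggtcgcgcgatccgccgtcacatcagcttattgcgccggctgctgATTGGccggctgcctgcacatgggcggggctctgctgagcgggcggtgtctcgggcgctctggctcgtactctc
Srebf1: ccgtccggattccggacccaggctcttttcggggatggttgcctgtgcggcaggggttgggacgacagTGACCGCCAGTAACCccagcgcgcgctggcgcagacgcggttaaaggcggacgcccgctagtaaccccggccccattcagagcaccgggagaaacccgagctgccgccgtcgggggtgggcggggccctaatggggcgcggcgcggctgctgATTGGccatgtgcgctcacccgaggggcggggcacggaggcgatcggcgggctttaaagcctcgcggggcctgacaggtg
Abca1: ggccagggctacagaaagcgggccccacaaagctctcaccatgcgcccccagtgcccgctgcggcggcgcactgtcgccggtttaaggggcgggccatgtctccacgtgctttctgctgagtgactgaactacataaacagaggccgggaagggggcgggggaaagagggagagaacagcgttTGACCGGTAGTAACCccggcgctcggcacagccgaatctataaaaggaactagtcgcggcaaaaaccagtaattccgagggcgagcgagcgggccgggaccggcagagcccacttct
Mylip: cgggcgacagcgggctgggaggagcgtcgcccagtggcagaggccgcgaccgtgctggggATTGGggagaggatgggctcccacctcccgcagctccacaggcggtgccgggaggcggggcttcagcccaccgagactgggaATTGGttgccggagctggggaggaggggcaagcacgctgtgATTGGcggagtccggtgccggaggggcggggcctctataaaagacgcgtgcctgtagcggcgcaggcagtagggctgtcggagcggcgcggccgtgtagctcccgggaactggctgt
Ch25h: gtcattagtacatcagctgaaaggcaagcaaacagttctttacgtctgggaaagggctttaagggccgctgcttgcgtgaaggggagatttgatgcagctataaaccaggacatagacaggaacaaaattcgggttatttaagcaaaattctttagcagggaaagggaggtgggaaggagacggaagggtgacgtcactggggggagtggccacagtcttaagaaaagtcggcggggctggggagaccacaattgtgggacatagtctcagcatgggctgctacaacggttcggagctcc

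Among the listed genes that had a window, Hmgcs1 held the only exact SREBP site, 137 bases before its start, with 4 NF-Y boxes around it. Sqle, Fdps, Fdft1 and Stard4 were among those without a window. Sc5d held 1 NF-Y box 24 bases before its start, and Mylip held 3. A DR4-type site lay 67 bases before the start of Abca1 and 182 bases before that of Srebf1. Ch25h held none of the 3 motifs in its window. Over the whole pathway, 29 of the 37 listed genes had a window in the table used here. Among synthesis genes, 14 of 15 with a window held an NF-Y box, the exception being Acat2, where 41.1% of all 27025 genes with a window did. The DR4-type site was in 3 of 29 genes, Abca1, Srebf1 and Fasn, against 0.818% of all genes, and the SREBP site was in 1.44% of all genes. Exact matches inside the windows were counted, and near matches or sites elsewhere were not searched. The motifs describe the letters of these windows and say nothing of binding.

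In Dap12-KO macrophages, 9 of the 34 genes were at least 2-fold lower with IL-4 and 2 were higher, where 17.6% of all genes above the floor were lower and 8.04% higher. In WT macrophages 4 were lower and 0 higher, against a background of 1.25% lower and 1.21% higher. In WT, all 4 were enzymes of synthesis. In Dap12-KO, the lower genes were 5 enzymes of synthesis, the SREBP anchor Insig1, the sterol carrier Stard4, Abca1 and Mylip, and the higher ones were Mvk and Ch25h. Mvk counts by a probe set that was its brightest only through the value on the Dap12-KO IL-4 array. Since these are whole-sample measurements, fewer cells of a type and less RNA per cell cannot be told apart. After cyclic loess 3 of the 11 in Dap12-KO stayed past 2-fold, Mvk, Mylip and Ch25h, and all 4 in WT did. By the median over a gene's probe sets, 1 of the 4 in WT stayed past 2-fold, Sc5d.

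**Figure D1:**
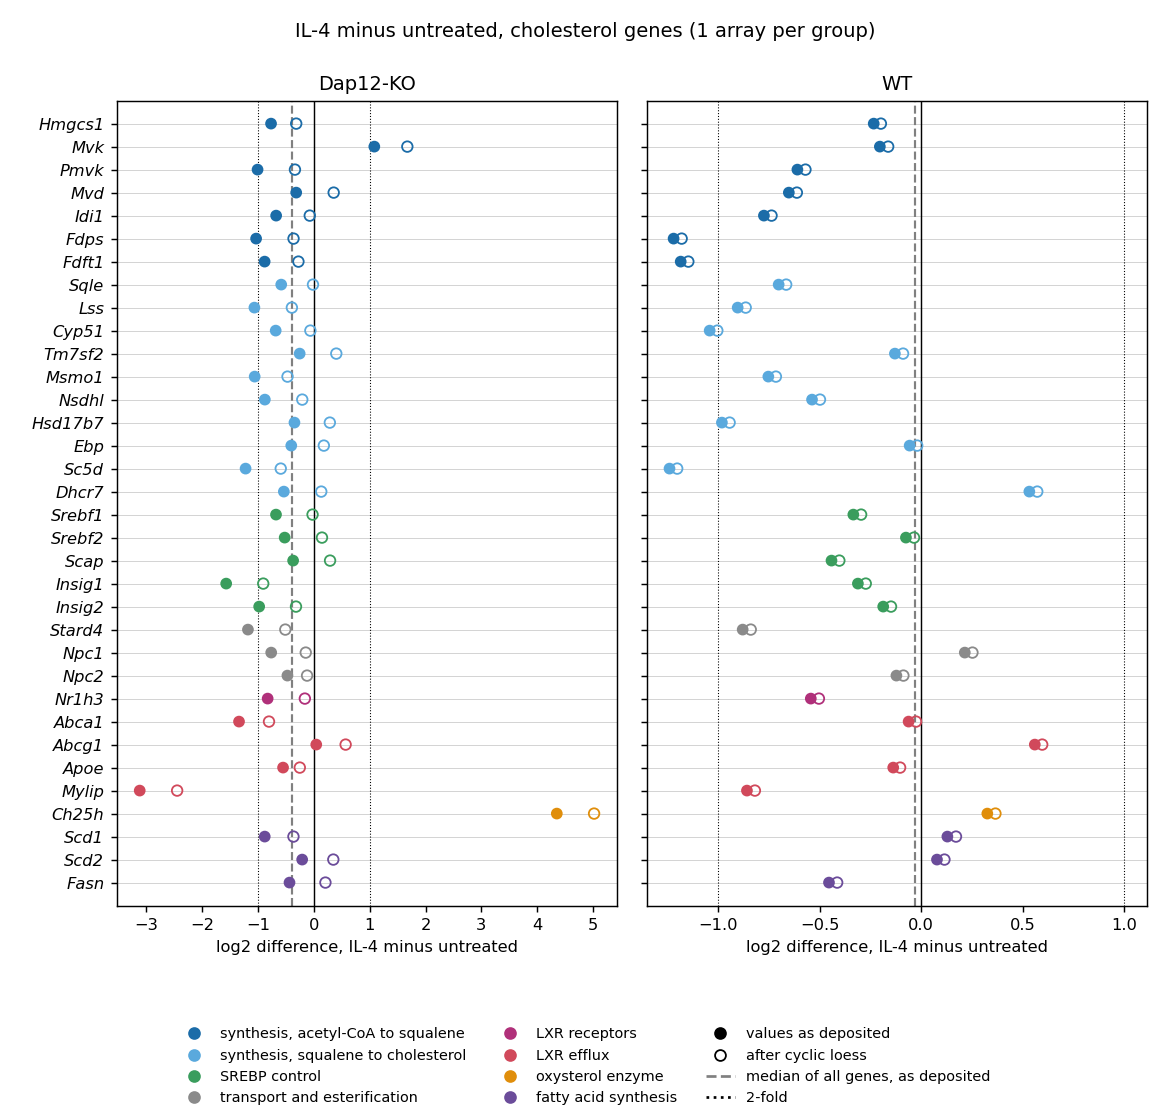
Log2 difference, IL-4 minus untreated, of the 34 genes in Dap12-KO (left) and WT (right) macrophages, as deposited (filled) and after cyclic loess (open). The 2 panels have different horizontal scales, the dashed line is the median of all genes as deposited, and dotted lines mark 2-fold. Most synthesis enzymes lay left of the all-gene median in WT, and Ch25h and Mylip stood apart from the rest in Dap12-KO.

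The first stretch of the synthesis route, from acetyl-CoA to squalene, held 7 measured enzymes. Hmgcs1, the synthase of HMG-CoA that opens the mevalonate path, read 12.41 with IL-4 and 13.18 untreated in Dap12-KO, against 13.31 and 13.55 in WT. Its IL-4 difference was −0.77 in Dap12-KO and −0.23 in WT, and after cyclic loess −0.32 and −0.20. Of its 5 probe sets, 5 were lower with IL-4 in Dap12-KO and 4 in WT. The kinase Pmvk, which adds the second phosphate to mevalonate, read 8.20 with IL-4 and 9.21 untreated in Dap12-KO, and 9.38 and 9.99 in WT. Mvd, the decarboxylase that makes isopentenyl diphosphate, differed by −0.32 in Dap12-KO and −0.65 in WT. The isomerase Idi1 differed by −0.68 and −0.78 in the same order. These 4 genes were lower with IL-4 in both genotypes as deposited, but in Dap12-KO after cyclic loess Mvd stood at 0.35, Idi1 at −0.07 and Pmvk at −0.34.

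Fdps, which joins isoprene units into farnesyl diphosphate, read 8.80 with IL-4 and 9.83 untreated in Dap12-KO, against 8.52 and 9.74 in WT. Its differences were −1.03 in Dap12-KO and −1.22 in WT, so both genotypes passed 2-fold. After cyclic loess these were −0.36 and −1.18. Its second probe set, near the floor, gave 0.56 and 0.01 for the same comparisons. Fdft1, the squalene synthase that commits isoprenoids to sterols, read 10.29 with IL-4 and 11.17 untreated in Dap12-KO, against 10.65 and 11.83 in WT. It differed by −0.88 in Dap12-KO and −1.19 in WT, and 2 and 3 of its 4 probe sets shared that sign. After cyclic loess these were −0.28 and −1.15. By its brightest probe set, mevalonate kinase, Mvk, was the 1 enzyme of synthesis that was higher with IL-4 in Dap12-KO. It read 9.48 with IL-4 and 8.40 untreated there, against 7.58 and 7.78 in WT. Its difference was 1.08 in Dap12-KO and −0.20 in WT, but its other probe set gave −0.45 and −0.66. The choice between them rested on the Dap12-KO IL-4 array, where the other probe set read 8.22. On the untreated arrays the other one was brighter, at 8.67 in Dap12-KO and 8.21 in WT. The rise of Mvk thus depends on a probe set selected through the array where it is high. After cyclic loess the brightest one gave 1.67 and −0.16.

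The second stretch of the route, from squalene to cholesterol, held 10 measured enzymes. As deposited, all 10 were lower with IL-4 in Dap12-KO and 9 in WT, where 66.1% and 56.3% of all genes were. After cyclic loess 4 of the 10 were above 0 in Dap12-KO. Sc5d, the desaturase of a late sterol intermediate, had the lowest difference of the route in both genotypes. It read 9.50 with IL-4 and 10.72 untreated in Dap12-KO, against 10.36 and 11.61 in WT, which gives −1.22 and −1.24. After cyclic loess these were −0.59 and −1.20. A second probe set gave −1.61 and −1.23, and a dimmer one gave 0.41 and 0.08. Cyp51, the demethylase of lanosterol, read 9.86 with IL-4 and 10.54 untreated in Dap12-KO, against 10.69 and 11.74 in WT. Its 3 probe sets were all lower with IL-4, by between −0.68 and −0.52 in Dap12-KO and between −1.04 and −0.61 in WT. After cyclic loess the brightest one gave −0.06 and −1.01.

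Hsd17b7, a sterol keto reductase, read 9.80 with IL-4 and 10.14 untreated in Dap12-KO, against 10.48 and 11.47 in WT. Its difference was −0.35 in Dap12-KO and −0.98 in WT, and 0.29 and −0.94 after cyclic loess. Lss, the cyclase that makes lanosterol, differed by −1.06 and −0.90, and Msmo1, the methyl sterol oxidase, by −1.06 and −0.75. Both passed 2-fold in Dap12-KO as deposited and stood at −0.39 and −0.47 there after cyclic loess. Squalene epoxidase, Sqle, differed by −0.58 in Dap12-KO and −0.70 in WT, and Nsdhl, a sterol dehydrogenase, by −0.88 and −0.54. After cyclic loess Sqle stood at −0.02 and Nsdhl at −0.21 in Dap12-KO. The reductase Tm7sf2 (−0.25 and −0.13) and the isomerase Ebp (−0.40 and −0.06) differed least in WT, and after cyclic loess they stood at 0.40 and 0.18 in Dap12-KO. Dhcr7, the reductase of a final step, was the exception. It read 9.19 with IL-4 and 9.72 untreated in Dap12-KO, against 9.94 and 9.40 in WT. Its differences of −0.54 in Dap12-KO and 0.53 in WT had opposite signs, which cyclic loess removed, with 0.13 and 0.57.

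As a group, 16 of the 17 measured synthesis enzymes were below 0 with IL-4 in each genotype, with a median of −0.68 in Dap12-KO and −0.70 in WT. Of all genes above the floor, 66.1% were below 0 in Dap12-KO and 56.3% in WT. Against the median of all genes, 13 of 17 lay lower in Dap12-KO and 16 of 17 in WT. After cyclic loess the median was −0.073 in Dap12-KO and −0.67 in WT, with 11 and 16 of 17 below 0 and the same numbers below the all-gene median, where 45.2% and 48.8% of all genes were below 0. The value in WT thus hardly moved with scaling, and the value in Dap12-KO did.

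The genes that control SREBP cleavage were lower with IL-4 in both genotypes as deposited, 5 of 5 in each. Of all genes above the floor, 66.1% were below 0 in Dap12-KO and 56.3% in WT. After cyclic loess 3 of 5 were below 0 in Dap12-KO. As deposited, 1 gene of the 5 passed 2-fold. That was Insig1, the sterol-sensing anchor and itself a target of SREBP, in Dap12-KO. It read 8.61 with IL-4 and 10.18 untreated in Dap12-KO, against 10.09 and 10.40 in WT, so 1 array stood below the other 3. The difference was −1.57 in Dap12-KO and −0.31 in WT, and −0.91 and −0.27 after cyclic loess. Its relative Insig2 read 9.22 with IL-4 and 10.20 untreated in Dap12-KO, against 10.07 and 10.25 in WT. All 3 of its probe sets were lower with IL-4 in Dap12-KO, between −1.67 and −0.98, and in WT they lay between −0.19 and 0.00. Srebf2, which encodes SREBP2, differed by −0.52 in Dap12-KO and −0.07 in WT. Srebf1, which encodes the fatty acid branch of the family and is a target of LXR, differed by −0.68 and −0.33, and Scap, the escort, by −0.37 and −0.44. After cyclic loess Srebf2 and Scap stood at 0.15 and 0.29, Insig2 at −0.32 and Srebf1 at −0.02 in Dap12-KO.

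Among the carriers of cholesterol inside the cell, Stard4 ferries sterol between membranes and is a target of SREBP2. It read 8.49 with IL-4 and 9.67 untreated in Dap12-KO, against 8.84 and 9.72 in WT. Its differences were −1.18 in Dap12-KO and −0.88 in WT, or −0.51 and −0.84 after cyclic loess. All 3 of its probe sets shared the sign in each genotype. Npc1 and Npc2 pass cholesterol out of the lysosome. Npc1 read 10.45 with IL-4 and 11.21 untreated in Dap12-KO, against 10.77 and 10.56 in WT, which gives −0.76 and 0.22, or −0.15 and 0.25 after cyclic loess. Npc2, bright on every array, differed by −0.47 and −0.12, or −0.12 and −0.09 after cyclic loess.

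Of the LXR side, the receptor Nr1h3 read 8.79 with IL-4 and 9.62 untreated in Dap12-KO, against 8.67 and 9.21 in WT. Its differences were −0.83 in Dap12-KO and −0.54 in WT, and −0.16 and −0.50 after cyclic loess. Abca1, the pump that loads apolipoprotein A-I, read 10.99 with IL-4 and 12.33 untreated in Dap12-KO, against 12.37 and 12.43 in WT. The Dap12-KO IL-4 array alone stood low, and the differences were −1.34 and −0.06, or −0.80 and −0.03 after cyclic loess. Its second probe set above the floor gave −0.51 and −0.09. Abcg1, the pump that loads larger lipoproteins, read 12.29 with IL-4 and 12.25 untreated in Dap12-KO, against 12.36 and 11.80 in WT. It was thus lowest on the untreated WT array, with differences of 0.04 in Dap12-KO and 0.56 in WT, and 0.57 and 0.60 after cyclic loess. Apoe, the lipoprotein that accepts exported cholesterol, read 14.38 with IL-4 and 14.93 untreated in Dap12-KO, against 14.75 and 14.88 in WT, which gives −0.55 and −0.14, or −0.25 and −0.10 after cyclic loess.

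Mylip had the widest range of the efflux genes. It read 7.98 with IL-4 and 11.10 untreated in Dap12-KO, against 9.11 and 9.97 in WT. The difference was −3.12 in Dap12-KO, an 8.68-fold lower value, and −0.86 in WT, a 1.81-fold lower one. After cyclic loess these were −2.45 and −0.82. Among all genes above the floor, 0.11% had a value at or below that of Mylip for IL-4 in Dap12-KO and 1.90% did for IL-4 in WT. Mylip had 1 probe set.

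Ch25h, the hydroxylase that turns cholesterol into an oxysterol that restrains SREBP cleavage, had the widest range of all 34 genes. It read 10.77 with IL-4 and 6.42 untreated in Dap12-KO, against 9.80 and 9.48 in WT. The untreated Dap12-KO array stood alone, at the level floor, and the other 3 arrays lay far above it. The IL-4 difference was 4.35 in Dap12-KO and 0.33 in WT. Ch25h had 1 probe set, and a level at the floor is imprecise, so the size of each difference that uses the untreated Dap12-KO array is uncertain.

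**Figure D2:**
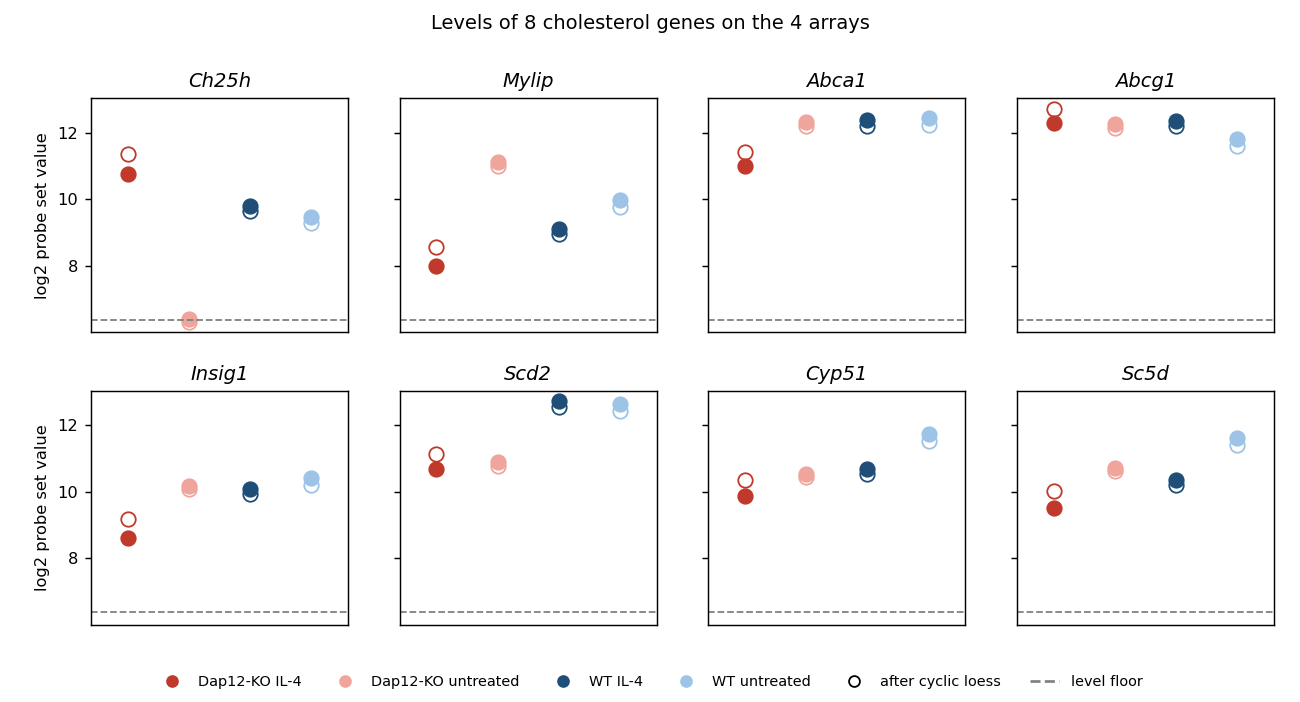
Log2 probe set value of 8 genes on each of the 4 arrays, as deposited (filled) and after cyclic loess (open), with the level floor dashed. Ch25h was at the floor on the untreated Dap12-KO array, and Abca1 and Insig1 were lowest on the Dap12-KO IL-4 array. Scd2 was lower in Dap12-KO than in WT, untreated and with IL-4.

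The 3 fatty acid genes that SREBP1 and LXR share did not pass 2-fold with IL-4 in either genotype. The desaturase Scd1 read 7.53 with IL-4 and 8.41 untreated in Dap12-KO, against 8.0 and 7.87 in WT, with differences of −0.88 and 0.13. Its relative Scd2 differed by −0.21 and 0.08. Fasn, the fatty acid synthase, differed by −0.44 in Dap12-KO and −0.45 in WT. After cyclic loess Scd2 and Fasn stood above 0 in Dap12-KO, at 0.35 and 0.21, and Scd1 stood at −0.37.

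The IL-4 effect over both genotypes could be tested, since it has 2 arrays on each side. With a genotype term in the fit and Benjamini-Hochberg adjustment over 12767 genes, limma called 1 gene of the 34 as risen and 1 as fallen. Over all genes 0.54% rose and 1.1% fell. Ch25h rose by 2.34 ± 0.42 (SE, adjusted p = 1.24e-05), and Mylip fell, with a difference of −1.99 ± 0.42 (SE, adjusted p = 0.000492). The fit left 1 residual degree of freedom and pooled the spread over all genes, so every gene had the same SE. For Ch25h this SE does not reflect that Dap12-KO gave 4.35 and WT 0.33. With cyclic loess, quantile normalization, no level floor or no genotype term, limma called neither, with an adjusted p of 0.68 and 0.725 for Mylip and of 0.691 and 0.725 for Ch25h after the 2 rescalings. In the first 3 of these settings it called 0 of all genes, and with no genotype term 7, all risen. Over all 6 alternatives, limma's adjusted p ranged over 8.98e-05 to 0.725 for Mylip and over 1.16e-06 to 0.825 for Ch25h. No synthesis enzyme was called with the values as deposited, and the nearest was Sc5d at −1.23 ± 0.42 (SE, limma adjusted p = 0.134). By the median over probe sets limma called Lss as fallen, at −1.39 with an adjusted p of 0.0301, against 0.337 to 0.923 with the deposited brightest probe set and the other 5 alternatives. In that setting 131 of 11543 genes fell. The median was taken on each array, and for Lss with IL-4 in Dap12-KO it was 5.97, below the floor. That value came from a probe set below the floor on every array. The untreated Dap12-KO value of 7.83 came from a different one, so this call is uncertain. At an unadjusted p under 0.05, limma had 10 of the 34, where it had 9.76% of all genes, and 3 of the 34 after cyclic loess or quantile normalization. The 10 included Sc5d, Fdps, Fdft1, Lss, Msmo1, Cyp51, Stard4 and Insig1, each with a negative difference.

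Without IL-4, 1 of the 34 genes was at least 2-fold higher in Dap12-KO than in WT and 4 were lower, against 3.12% of all genes higher and 3.41% lower. All 5 genes stayed past 2-fold after cyclic loess and after quantile normalization. Scd2, the desaturase that makes monounsaturated fatty acids, read 10.90 in Dap12-KO and 12.63 in WT, a difference of −1.73. Its other 2 probe sets gave −2.13 and −1.54. Cyp51 differed by −1.20, with −1.67 and −1.28 from its other probe sets. Hsd17b7 differed by −1.32, with −1.27 and −1.43 from 2 others that reach the floor. Its brightest probe set is of the type that can bind related transcripts. Each of these 3 genes was thus lower in untreated Dap12-KO by every probe set that reaches the floor. Ch25h differed by −3.06, with its Dap12-KO value at the floor, and Mylip was higher by 1.14. These 2 read lowest and highest on the untreated Dap12-KO array, which also serves as the baseline of the IL-4 differences in Dap12-KO.

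All synthesis enzymes together were mixed in untreated cells, 11 of 17 below 0 with a median of −0.37, where 47.3% of all genes were below 0. Sc5d differed by −0.89, Pmvk by −0.79, Sqle by −0.67 and Fdft1 by −0.66, while Tm7sf2 and Mvk stood at 0.68 and 0.62. The SREBP control genes lay between −0.29 and −0.01. On the efflux side Abca1 differed by −0.10, Abcg1 by 0.45 and Apoe by 0.05, and the receptor Nr1h3 by 0.41. Npc1 was higher by 0.65.

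With IL-4, 1 gene was at least 2-fold higher in Dap12-KO than in WT and 5 were lower, against 10.9% of all genes higher and 17.6% lower. Mvk was the higher one, at 1.90, with 0.67 from its other probe set. The probe set that gave 1.90 was chosen as brightest through its value on the Dap12-KO IL-4 array. Scd2 was again lower, at −2.01, with −2.16 and −1.63 from its other probe sets. It read 10.69 and 10.90 on the 2 Dap12-KO arrays and 12.71 and 12.63 on the 2 WT arrays. After cyclic loess its difference was −1.63 untreated and −1.40 with IL-4. Insig1 (−1.48), Abca1 (−1.38), Pmvk (−1.19) and Mylip (−1.12) were also lower as deposited, and after cyclic loess they stood at −0.75, −0.79, −0.46 and −0.39. Cyclic loess instead put Ch25h (1.69), Tm7sf2 (1.27) and Fdps (1.01) past 2-fold with Mvk. Of the 17 synthesis enzymes, 13 were below 0 here as deposited and 5 after cyclic loess, where 65.8% and 42.3% of all genes were.

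**Figure D3:**
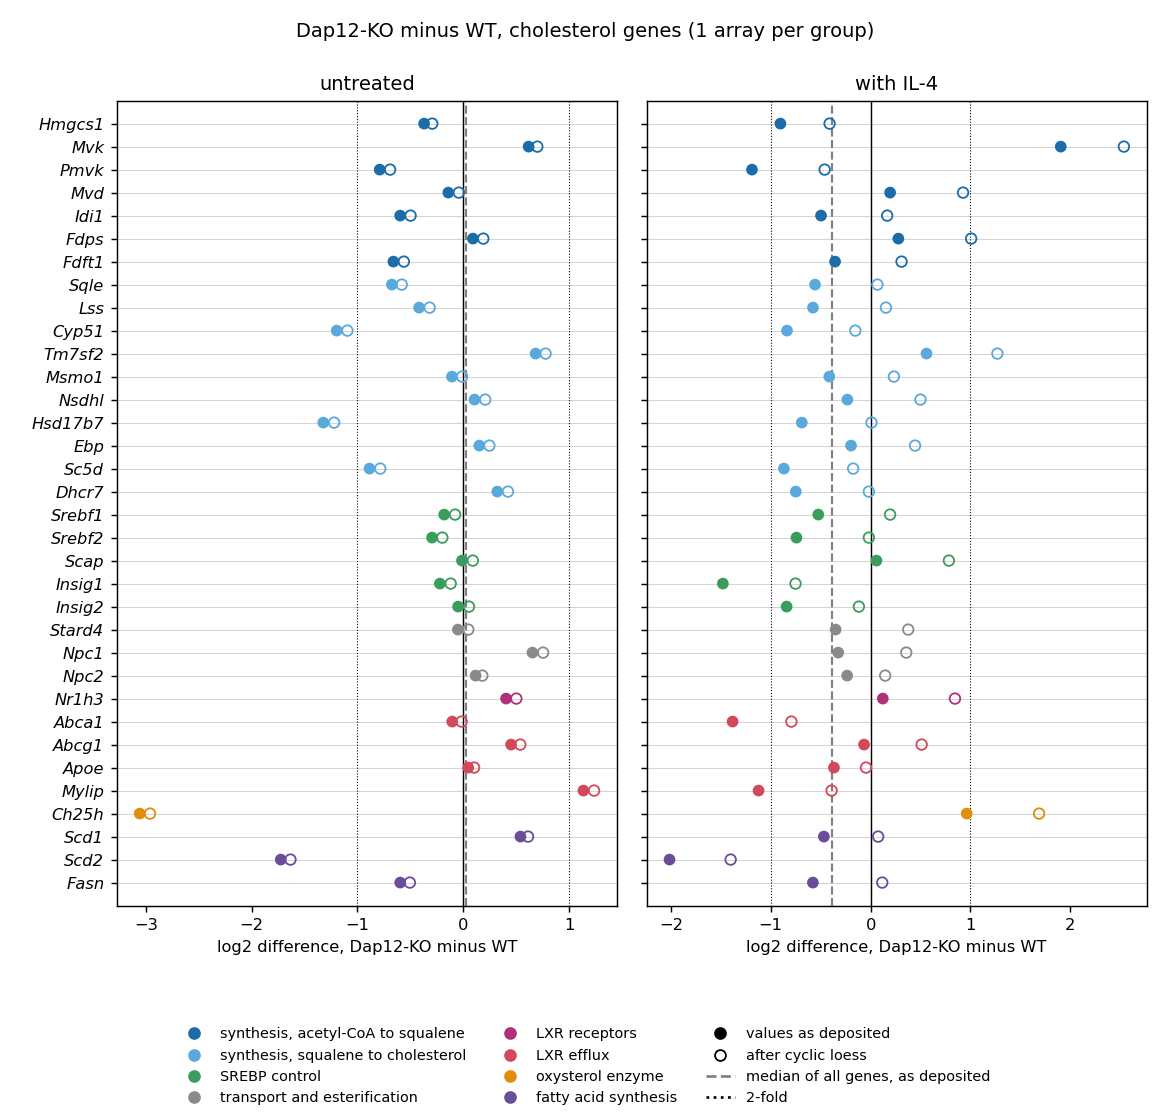
Log2 difference, Dap12-KO minus WT, of the 34 genes untreated (left) and with IL-4 (right), as deposited (filled) and after cyclic loess (open), with the all-gene median dashed and 2-fold dotted. The panels have different horizontal scales. Scd2 lay left of the 2-fold line in both panels, and cyclic loess shifted nearly all genes to the right with IL-4.

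The IL-4 response of Dap12-KO minus that of WT passed 2-fold upwards in 2 of the 34 genes and downwards in 5, against 8.15% and 14.8% of all genes. Ch25h had 4.02, a size that rests on its value at the floor in untreated Dap12-KO, and Mvk 1.29. The other probe set of Mvk gave 0.21. Mylip had −2.26, Abca1 −1.28, Insig1 −1.26, Dhcr7 −1.07 and Scd1 −1.01. Of all genes, 0.52% lay at or below the value of Mylip. The median of all genes was −0.36 here, and after cyclic loess Abca1, Insig1, Dhcr7 and Scd1 stood between −0.78 and −0.44. This quantity uses all 4 arrays once and has no test.

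Synthesis and efflux were then set side by side. For IL-4 in WT, the 17 synthesis enzymes had a median of −0.70 and the 4 efflux genes a median of −0.10, with all genes at −0.03. The synthesis median minus the efflux median was −0.60 both as deposited and after cyclic loess. The 4 efflux genes did not move as 1 group, since Abcg1 stood at 0.56 and Mylip at −0.86. For IL-4 in Dap12-KO the order turned: synthesis had −0.68 and efflux −0.95, a difference of 0.26, or 0.45 after cyclic loess. By the median over the probe sets of each gene this difference was −0.05 in Dap12-KO and −0.49 in WT, so its sign in Dap12-KO depended on the probe sets. It also depended on Mylip, which acts on lipoprotein receptors and does not export cholesterol. Without Mylip, the middle efflux value for IL-4 in Dap12-KO was that of Apoe. As deposited it was −0.55, above synthesis at −0.68. After cyclic loess it was −0.25, below synthesis at −0.073. For untreated Dap12-KO against WT, synthesis had −0.37 and efflux 0.25, a difference of −0.62. With IL-4 these were −0.50 and −0.74, a difference of 0.25. Each efflux median rests on 4 genes and carries no test.

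**Figure D4:**
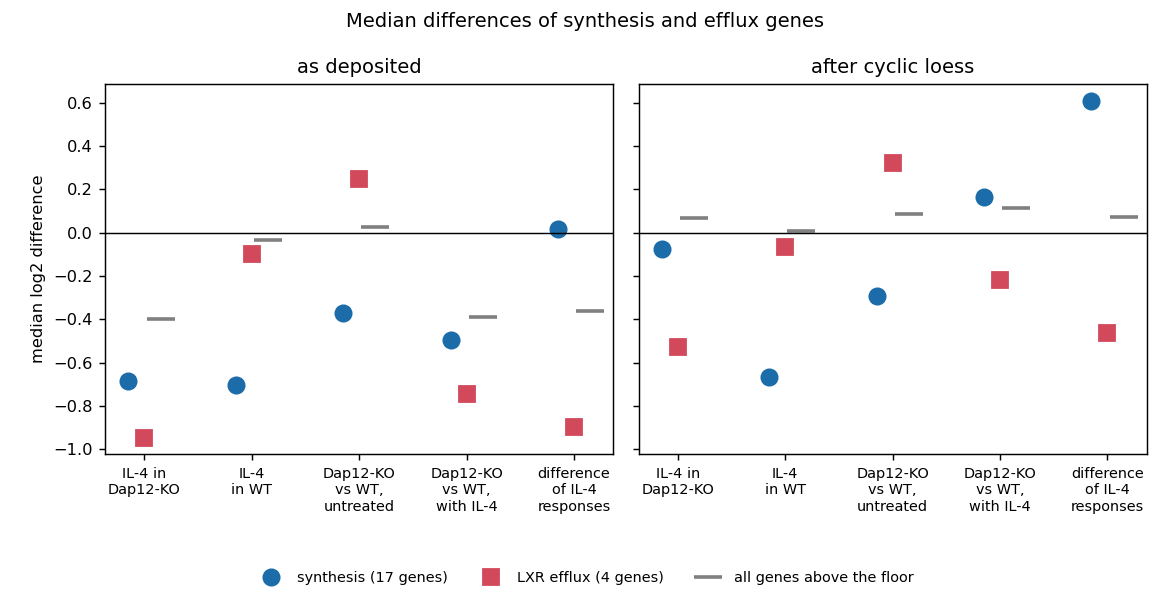
Median log2 difference of the 17 synthesis enzymes (circles), the 4 LXR efflux genes (squares) and all genes above the floor (bars) in 5 comparisons, as deposited (left) and after cyclic loess (right). Synthesis lay below efflux for IL-4 in WT and for untreated Dap12-KO against WT, and above it in the comparisons that use the Dap12-KO IL-4 array.

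A further 46 genes of the pathway were listed, and 42 were above the floor. With IL-4, 9 of the 42 were at least 2-fold lower in Dap12-KO and 3 in WT, and 0 were higher in either, against 17.6% and 1.25% of all genes lower. Their medians were −0.79 in Dap12-KO and −0.17 in WT, and −0.21 and −0.13 after cyclic loess. Acss2, which makes acetyl-CoA from acetate, and Fads1, a desaturase of polyunsaturated fatty acids, were lower in both genotypes. Acss2 read 6.40 with IL-4 and 7.97 untreated in Dap12-KO, against 6.48 and 8.13 in WT. The 2 IL-4 values lay just above the floor. Fads1 read 7.99 with IL-4 and 9.83 untreated in Dap12-KO, against 9.55 and 10.67 in WT. Both stayed past 2-fold in each genotype after cyclic loess, with −1.31 and −1.61 for Acss2 and −1.17 and −1.09 for Fads1. Elovl6, an elongase of fatty acids, was the third in WT, at −1.14. These 3 belong to the 11 genes of fatty acid and acetyl-CoA supply, whose medians were −0.66 in Dap12-KO and −0.62 in WT, and −0.038 and −0.58 after cyclic loess.

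Cyp27a1, a mitochondrial enzyme that makes another oxysterol, read 7.70 with IL-4 and 9.80 untreated in Dap12-KO, against 7.75 and 7.76 in WT. The untreated Dap12-KO array alone stood high, which gives −2.10 for IL-4 in Dap12-KO and 2.03 for untreated Dap12-KO against WT. Lpin1, a phosphatidate phosphatase, read 8.29 with IL-4 and 9.72 untreated in Dap12-KO, against 6.90 and 7.52 in WT. It was thus higher in Dap12-KO by 2.21 untreated and by 1.39 with IL-4. Nceh1, a hydrolase of cholesteryl esters, was higher by 1.18 in untreated Dap12-KO. Of the 42 genes, 4 were at least 2-fold higher and 0 lower in untreated Dap12-KO, against 3.12% and 3.41% of all genes. With IL-4, 2 were higher and 4 lower, against 10.9% and 17.6%. The oxysterol-binding protein Osbpl8 had −1.44 for the difference of IL-4 responses, and the LXR partner Rxrb had −1.17, or −0.91 and −0.54 after cyclic loess.

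Marker sums of other cell types differed between the arrays too. The 4 adipocyte markers, a cell type that expresses Scd1 and Fasn strongly, summed to 26.02 with IL-4 and 22.09 untreated in Dap12-KO, against 22.47 and 21.15 in WT, with 2 of 4 below the floor on all arrays. The 6 neutrophil markers summed to 41.93 and 39.26 in Dap12-KO, against 37.78 and 39.36 in WT, with 2 below the floor throughout. Among them S100a8, named after its values were seen, was lowest on the Dap12-KO IL-4 array, at 7.86 there and 9.52 untreated in Dap12-KO, against 9.20 and 10.09 in WT. The 5 fibroblast and mesothelium markers summed to 31.61 and 29.52 in Dap12-KO, against 31.43 and 31.95 in WT, with 3 below the floor. Eosinophil and T cell markers were mostly below the floor throughout, 3 of 4 and 2 of 3. Mast cell markers summed highest on the untreated Dap12-KO array, to 25.01, with 3 of 4 below the floor throughout. The 4 measured B cell markers, all above the floor, summed to 31.90 and 33.29 in Dap12-KO, against 31.23 and 30.63 in WT. After cyclic loess the B cell sums were 33.39 and 33.17 in Dap12-KO, against 31.02 and 30.26 in WT. Sums over the 7 macrophage markers were 83.78 and 90.22 in Dap12-KO, against 86.43 and 86.75 in WT, and after cyclic loess 86.33 and 89.39 in Dap12-KO, against 85.29 and 85.36 in WT. The adipocyte sum was highest on the Dap12-KO IL-4 array after cyclic loess too, at 25.92. The part of these cell types in the results above was not tested.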

How the data were processed

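Total RNA of 4 mouse macrophage samples was labelled with biotin in 2 amplification cycles and hybridised to 1-colour Affymetrix arrays, per the labels' protocols. The authors deposited 1 log2 value per probe set and array. They were made with RMA, of unstated version, per the submitters' processing notes. Amplification favours the 3' part of transcripts, and RMA compresses differences near background. Probe-level data were not used here, so no detection call stands behind a value.

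Of 45101 probe sets, 34945 named 1 gene in GEO's platform annotation, 932 named several and stayed out, and 34741 matched the RefSeq gene table of GRCm38.p6 by Entrez identifier. Samples were grouped by their titles. Log2 differences were taken between arrays, and the IL-4 effect was fitted with limma 3.58.1 (R 4.3.3), called at an adjusted p under 0.05, after the fit was run on simulated data. The simulation gave every gene the same spread, and changed genes the same IL-4 change in both genotypes. It therefore cannot show how the fit behaves where spread or responses differ, as the responses of Ch25h do. Other steps used Python 3.11.15, numpy 2.4.6, pandas 2.3.3 and matplotlib 3.10.9. Alternatives were cyclic loess (3 iterations), quantile normalization, no level floor, the median over probe sets, an intensity trend and no genotype term. Every listed gene was named, with its single brightest probe set. Of the other pathway genes, those that IL-4 moved 2-fold alike in Dap12-KO and WT and up to 3 per comparison could be named. The members and lists were chosen with earlier results of these data known. Nothing in the labels says that arrays came from separate mice, and no group has replicate arrays. With a genotype term, the 1 residual degree of freedom per gene is the difference of IL-4 responses between the genotypes. The p-values of that fit rest on its spread pooled over genes, where differing responses and technical spread cannot be told apart.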

Additional observations from a re-analysis of the deposited data

Results flagged for a closer look

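In 5 of the 34 genes the IL-4 difference had opposite signs in the 2 genotypes, and the difference between the genotypes was not tested. How many of all genes have opposite signs, under any scaling, was not counted. These counts therefore do not set the members apart from other genes. Mvk differed by 1.08 in Dap12-KO and −0.20 in WT, so the responses were 1.29 apart, with its second probe set negative in both as deposited. The probe set used for Mvk was the brightest only through its Dap12-KO IL-4 value. Dhcr7 differed by −0.54 in Dap12-KO and 0.53 in WT, which gives −1.07. For Scd1 the values were −0.88 in Dap12-KO and 0.13 in WT, which gives −1.01. For Npc1 they were −0.76 in Dap12-KO and 0.22 in WT, which gives −0.98. Scd2 had −0.21 in Dap12-KO and 0.08 in WT, which gives −0.29, and its 3 probe sets in WT lay between −0.04 and 0.08. After cyclic loess Dhcr7 read 0.13 and 0.57 and Scd2 read 0.35 and 0.12, so that neither kept opposite signs. Under that scaling the count was 10 of 34, with Mvd, Tm7sf2, Hsd17b7, Ebp, Srebf2, Scap and Fasn added, and under quantile normalization it was 10 as well.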

How the results depend on the processing

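Comparisons that use the Dap12-KO IL-4 array depended on array scaling, and the cause was not tested. For IL-4 in Dap12-KO, lower genes numbered 1 under cyclic loess and 1 under quantile normalization, and higher genes 1 under the median over probe sets. Of all genes, 755 of 12446 were lower under cyclic loess and 1116 of 12630 under quantile normalization, against 2249 of 12767 as deposited. For Dap12-KO against WT with IL-4, higher genes numbered 4 under cyclic loess and 3 under quantile normalization, and lower genes 1, 1 and, under the median over probe sets, 9. Of all genes, 1572 were higher and 686 lower under cyclic loess, and 1790 and 1012 under quantile normalization. As deposited these were 1387 and 2245, so the counts of all genes moved with the scaling too. For the difference of responses, lower genes numbered 1 under each rescaling and higher genes 1 under the median over probe sets. Of all genes, 716 were lower under cyclic loess and 1012 under quantile normalization, against 1893 as deposited. For IL-4 in WT, lower genes numbered 1 under the median over probe sets, which dropped Cyp51, Fdft1 and Fdps. The 2-fold counts of all genes under the median over probe sets are not given here. The synthesis median for IL-4 in Dap12-KO was −0.073 under cyclic loess, for Dap12-KO against WT with IL-4 it was 0.17 under cyclic loess and 0.12 under quantile normalization, and for the difference of responses it was 0.61 under cyclic loess. Under cyclic loess, quantile normalization and no level floor, limma called 0 of the 34 and 0 of all genes. With no genotype term it called 0 of the 34, and 7 of all 12767 genes as risen and 0 as fallen. At an unadjusted p under 0.05, limma had 814, 599, 962 and 464 of all genes in these 4 settings, and 3, 3, 12 and 6 of the 34. Under the median over probe sets it called 1 member as risen and 2 as fallen, Mylip and Lss. There 58 of 11543 genes rose and 131 fell, and the call of Lss rests on a value below the floor. Of 170 single values, 73 moved by over 1.5-fold under cyclic loess, 34 under quantile normalization and 17 under the median over probe sets. No paired analysis was possible because the titles carry no replicate numbers and each group has 1 array, and for the same reason no replicate could be left out.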
